A study of Mus musculus with 18 samples.

Results

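The genes described here are 43 interferon-stimulated and antigen presentation genes, taken from the count table by their gene names. Of these, 42 had a row in the table, 41 had at least 1 count in some library, and 31 had enough counts to be tested. The table held 37310 genes, of which 15433 were tested. They were measured by RNA sequencing in cortical neurons cultured from mice, wild type (WT) or carrying a knockout (KO) of Fmr1, which encodes the RNA-binding protein FMRP. On day 7 of culture, DMSO as vehicle or JQ1, an inhibitor of the BET bromodomain proteins, was added for 24 h. Each genotype with each treatment made a group of 3 libraries, 12 in all, and the labels name no interferon among the treatments. Whether a group's 3 libraries stem from separate cultures or animals is not in the labels, and p-values then measure only the spread between these samples, which may be technical.

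Interferons are secreted proteins that cells release on meeting viral nucleic acid. They bind receptors coupled to JAK kinases, and the type I receptor activates a complex that holds STAT2 and IRF9 and binds the interferon-stimulated response element (ISRE). Signals from the interferon gamma receptor act through another element, the gamma-activated site (GAS). The genes switched on in this way encode sensors of foreign RNA, proteins that block steps of viral replication, GTPases that attack the membranes around pathogens, and the machinery that loads peptides on class I molecules for display to T cells. Many of these genes are also expressed at a low basal level without infection, and neurons are known for low class I expression.

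Several of these promoters carry the ISRE core, and a few are shown here because their genes, described further on, fell in JQ1 or showed little change. RefSeq gives promoter windows of 300 bases (250 before to 50 after each gene start, GRCm38.p6) for 34 of the genes. The core was searched on both strands as GAAA, any 2 bases and GAAA, and 18 of the 34 genes had a match, against 3.99% of the 27025 genes with such windows and 3.44% of the 32851 windows. The GAS letters TTC, any 3 bases and GAA, which are their own reverse complement, matched in 9 of the 34 genes, against 9.55% of all genes with windows. Of the 26 ISRE matches, 2 shared bases with a GAS match. A match is a description of letters and does not show that a factor binds there. The 250 bases before the start are printed below 5′ to 3′ on the gene's own strand, with matches to the ISRE core, in either orientation, in capitals. The Isg15 stretch lies at chr4:156200819-156201068 on the minus strand, and holds 3 overlapping matches that begin 78, 72 and 66 bases before the start. The Igtp stretch lies at chr11:58199306-58199555 on the plus strand, with 1 match beginning 34 bases before the start. The Rsad2 stretch lies at chr12:26456453-26456702 on the minus strand, with 1 match 120 bases before the start. The Stat2 stretch, at chr10:128270248-128270497 on the plus strand, has its match 222 bases before the start, and the B2m stretch, at chr2:122147437-122147686 on the plus strand, has its match 139 bases before the start.
Isg15: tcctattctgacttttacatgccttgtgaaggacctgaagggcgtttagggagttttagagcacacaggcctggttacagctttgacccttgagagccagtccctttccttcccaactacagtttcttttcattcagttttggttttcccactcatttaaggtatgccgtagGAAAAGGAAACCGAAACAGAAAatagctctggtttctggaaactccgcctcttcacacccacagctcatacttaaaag
Igtp: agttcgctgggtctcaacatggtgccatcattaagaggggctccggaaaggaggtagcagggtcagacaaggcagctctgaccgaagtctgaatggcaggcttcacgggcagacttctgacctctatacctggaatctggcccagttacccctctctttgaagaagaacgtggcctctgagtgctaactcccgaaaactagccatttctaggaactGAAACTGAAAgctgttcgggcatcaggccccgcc
Rsad2: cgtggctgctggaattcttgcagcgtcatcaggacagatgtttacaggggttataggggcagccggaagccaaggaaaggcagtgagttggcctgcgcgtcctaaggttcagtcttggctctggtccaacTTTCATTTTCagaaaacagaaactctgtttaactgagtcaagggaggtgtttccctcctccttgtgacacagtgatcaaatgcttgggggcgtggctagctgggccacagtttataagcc
Stat2: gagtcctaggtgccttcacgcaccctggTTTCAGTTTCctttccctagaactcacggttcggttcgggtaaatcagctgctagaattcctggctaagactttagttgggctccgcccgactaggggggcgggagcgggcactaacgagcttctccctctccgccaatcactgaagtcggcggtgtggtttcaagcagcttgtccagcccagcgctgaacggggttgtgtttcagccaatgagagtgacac
B2m: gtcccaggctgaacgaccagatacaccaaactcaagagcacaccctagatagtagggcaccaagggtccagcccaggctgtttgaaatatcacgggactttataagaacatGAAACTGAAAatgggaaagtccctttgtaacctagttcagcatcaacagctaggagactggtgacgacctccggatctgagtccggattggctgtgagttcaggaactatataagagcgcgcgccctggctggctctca

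Levels in WT neurons in DMSO were low for most of these genes. Per kilobase of annotated exon, H2-D1 and B2m, the heavy and light chains of a class I molecule, had the highest levels, at 22.5 and 21 CPM (counts scaled to a common library size) per kb (exon lengths from GENCODE M21, a build other than the authors'). Stat2 followed with 5.34 and H2-K1 with 3.97 CPM per kb. Ifit2 stood at 1.61, Isg15 at 0.487, Oasl2 at 0.0524 and Mx1 at 0.012 CPM per kb. Psmb9, a subunit of the immunoproteasome, had 0 counts in all 12 libraries under both of its identifiers, which by counting alone allows up to 0.028 CPM in WT in DMSO when a group's limit is set at 3 counts. Its exons overlap those of Tap1 on the other strand and it is listed under 2 identifiers, so that reads may have been left out or assigned elsewhere, and the 0 sets no limit on its level. Ifi27 was not analysed here. Another 10 genes had counts but too few to be tested, namely Irf7, Ifit1, Ifit3, Mx1, Ifi44, Xaf1, Irgm2, Usp18, Sp100 and Cxcl10.

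Libraries held 21643592 to 134110850 gene counts, and the deepest and the shallowest were both WT in JQ1. Fmr1 itself stood at 119.1 to 124.2 CPM in WT in DMSO and 21.5 to 29.4 CPM in KO in DMSO. It stood at 135.1 to 153.5 CPM in WT in JQ1 and 26 to 34.6 CPM in KO in JQ1, so the knockout libraries carried the lower level that their labels give. KO replicate 3 in DMSO stood apart from the other two of its group (chi-square per degree of freedom 40.7 and 41.4, against 7.93 between those), and counts are therefore also given without the KO replicate 3 libraries. Neuronal markers summed to 6250 to 6310 CPM in WT in DMSO, those of astrocytes to 785 to 941 CPM and those of microglia to 15.1 to 17.7 CPM.

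The first question is what JQ1 did to these genes. In JQ1, most of the antiviral and GTPase genes were several-fold lower in both genotypes, whereas the class I chains and the tested transcription factors lay within 1.33-fold of their vehicle level. That bound holds for the main scaling. With ERCC spike-in scaling, which also moved the median of all tested genes, all 31 tested genes lay below 0 in WT and 24 in KO. Over all alternatives, the lowest log2 changes of these chains and factors in WT ran from -1.035 (Irf1) to -0.36 (H2-D1). Tests were edgeR quasi-likelihood F tests over all tested genes with Benjamini-Hochberg adjustment, and a gene was called at an adjusted p under 0.05. In WT, 21 of the 31 tested genes were lower in JQ1, 1 was higher and 9 were not called, while 29.3% of all tested genes were called lower and 25.9% higher. In KO, 22 were lower, 2 higher and 7 not called, against 29.4% and 27.7% of all tested genes. Of the 31 genes, 18 were lower by more than 2-fold in each genotype, against 10.4% of all tested genes in WT and 10.3% in KO. The median log2 change of the 31 was -1.41 in WT and -1.32 in KO, against a median of -0.004 and 0.001 over all tested genes. The JQ1 libraries all lay below the DMSO libraries for 21 of the 31 in WT and all above for 1, against 32.3% and 30.3% of all tested genes, and for 23 and 2 in KO, against 31.1% and 29.7%. Without the KO replicate 3 libraries, 20 were lower in KO and 1 was higher.

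The filter on low counts shapes these counts. Of the 31 genes, 11 reached the count minimum through DMSO libraries alone and so had to be lower in JQ1 to some degree, and all 11 were called lower in both genotypes. These 11 were Ifih1, Oasl2, Rsad2, Mx2, Ifi35, Rtp4, Gbp2, Igtp, Isg15, Parp14 and Psmb8. Among the 849 tested genes that entered in this way, 75.6% were called lower in WT and 75% in KO. The other 20 genes reached the minimum in both treatments. Of these, 10 were lower in WT, 8 of them by more than 2-fold, 1 was higher and 9 were not called. Of the 14309 tested genes of that kind, 27% were called lower and 6.81% lower by more than 2-fold in WT. In KO, 11 of the 20 were lower, 8 by more than 2-fold, 2 were higher and 7 were not called, against 27.2%, 6.72% and 29.6% of such genes lower, lower by more than 2-fold and higher.

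**Figure D1:**
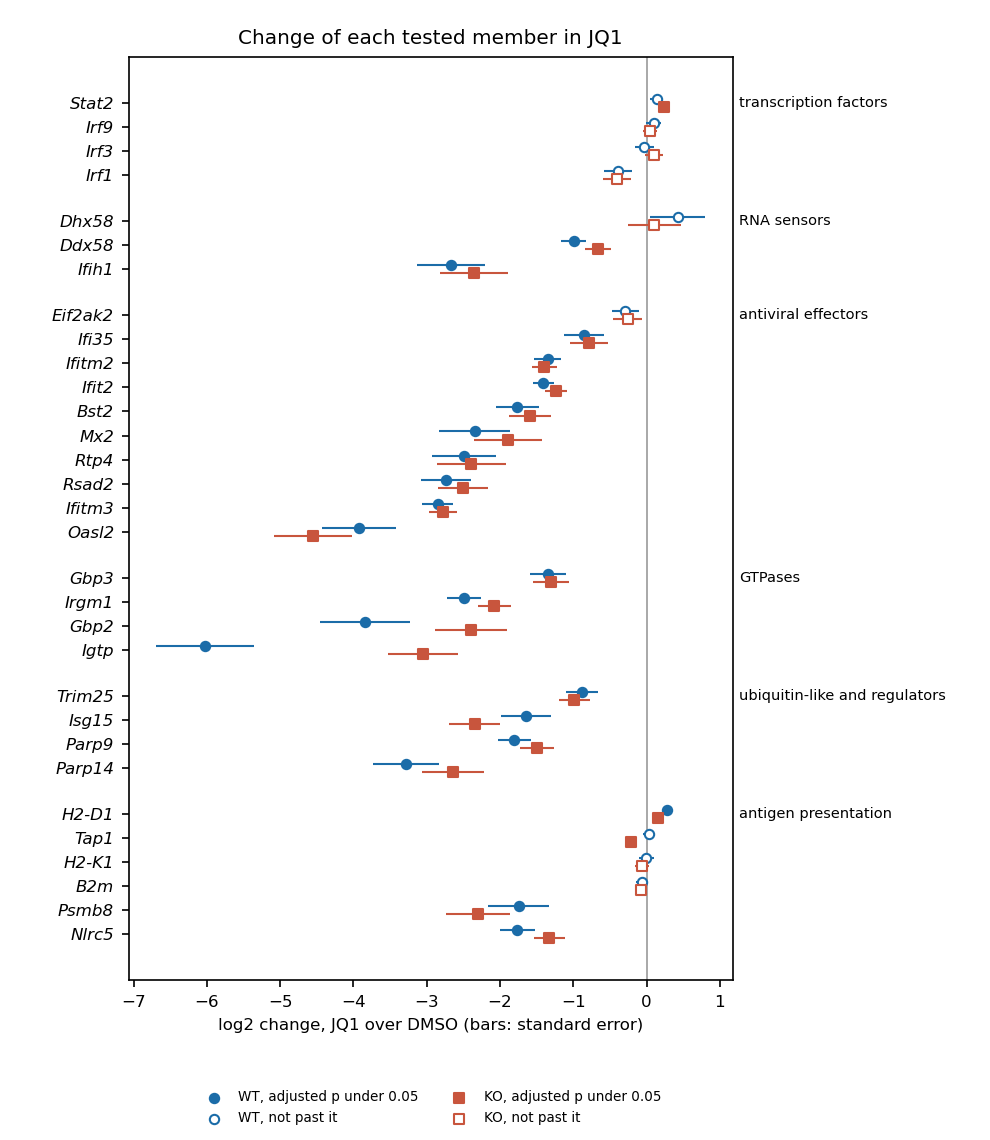
Log2 change in JQ1 over DMSO for each of the 31 tested genes, WT as circles and KO as squares, with bars of 1 standard error and filled symbols for an adjusted p under 0.05. All antiviral effectors and GTPases shown lie left of 0, down to -6.02 for Igtp in WT, while the factors, Tap1, H2-K1, B2m and H2-D1 lie close to 0.

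**Figure D2:**
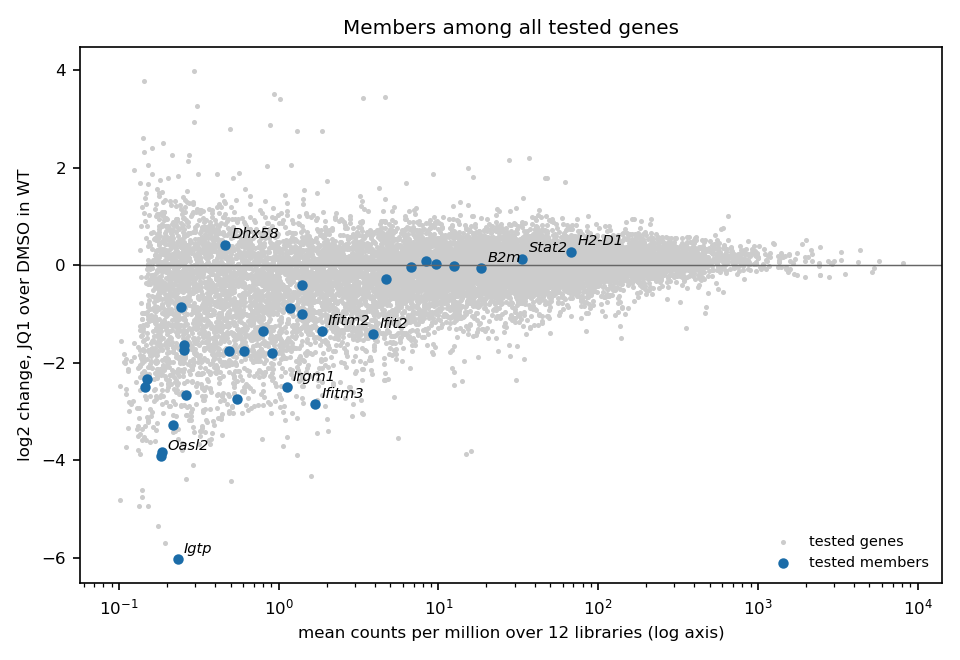
Log2 change in JQ1 over DMSO in WT (y axis) against the mean CPM over the 12 libraries (x axis, log scale), with every tested gene in grey and the 31 genes described here in blue. The genes of high level, such as H2-D1 and Stat2, lie near 0, and those of low level spread from Dhx58 at 0.42 down to Igtp at -6.02. Genes that passed the filter through DMSO libraries alone are included.

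The transcription factors of the pathway were the least changed group. Stat2, a subunit of the complex that binds the ISRE, stood at 34.5, 32.2 and 28.3 CPM in WT in DMSO and 36.8, 35.3 and 31.8 CPM in WT in JQ1. In KO it stood at 29.2, 31.5 and 32.7 CPM in DMSO and 41.2, 34.4 and 34.6 CPM in JQ1. The WT libraries overlapped and Stat2 was not called there (log2 change 0.14, SE 0.0862, adjusted p = 0.192), whereas the KO libraries did not overlap and it rose (0.24, SE 0.0847, adjusted p = 0.0272). That call was lost without KO in DMSO replicate 1 or 2 or KO in JQ1 replicate 1 (adjusted p = 0.104, 0.0517 and 0.138). Irf9, the DNA-binding subunit of the same complex, stood at 7.65 to 8.29 CPM in WT in DMSO and 8.26 to 8.87 CPM in WT in JQ1 (log2 change 0.10, adjusted p = 0.424). In KO, Irf9 had 7.61 to 9.65 CPM in DMSO and 7.88 to 9.16 CPM in JQ1 (0.05, adjusted p = 0.706). Both genotypes overlapped between treatments for Irf9, whose exons overlap those of Rnf31, so that its reads cannot be assigned with certainty. Irf3, which is activated by viral RNA sensing, was not called in WT (log2 change -0.03, adjusted p = 0.86) or in KO (0.10, adjusted p = 0.51), with 6 to 7.36 CPM in WT in DMSO and 6.47 to 6.85 CPM in WT in JQ1. In KO, Irf3 had 5.51 to 7.88 CPM in DMSO and 6.30 to 7.49 CPM in JQ1.

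Irf1, a factor induced by interferon gamma, stood at 1.49, 1.90 and 1.79 CPM in WT in DMSO and 1.21, 1.57 and 0.840 CPM in WT in JQ1. In KO it stood at 1.58, 1.42 and 1.58 CPM in DMSO and 0.924, 1.17 and 1.38 CPM in JQ1. Values were lower in JQ1 in both genotypes, with the WT libraries overlapping and the KO libraries not, but neither change was called (log2 change -0.39, SE 0.192, adjusted p = 0.0961 in WT and -0.41, SE 0.192, adjusted p = 0.0853 in KO). Under 3 alternative edgeR fits Irf1 was called lower in WT. These were ERCC spike-in scaling (-1.035, adjusted p = 0.0155), replicate blocks within genotype (-0.442, adjusted p = 0.0456) and the fit without WT in JQ1 replicate 2 (-0.672, adjusted p = 0.0188). No alternative called Irf1 in KO. Irf7, the factor that amplifies the type I response, was too low to test, with 13 counts summed over WT in DMSO, 14 over WT in JQ1, 23 over KO in DMSO and 20 over KO in JQ1. Its sums gave a level 1.74-fold lower in JQ1 in WT (95% counting interval 0.754 to 4), so no difference was detectable at this depth. Counting intervals cover counting error only.

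Among the sensors of viral RNA, Ifih1, which encodes MDA5, and Ddx58, which encodes RIG-I, fell, while Dhx58, which encodes LGP2, did not pass the test. Ifih1 entered the tests through DMSO libraries alone, so a fall was built in to some degree, while Ddx58 and Dhx58 reached the count minimum in both treatments. Ifih1 stood at 0.469, 0.369 and 0.578 CPM in WT in DMSO and 0.0577, 0.0923 and 0 CPM in WT in JQ1. In KO, Ifih1 stood at 0.309, 0.464 and 0.534 CPM in DMSO and 0.0792, 0.0397 and 0.180 CPM in JQ1. Every JQ1 library lay below every DMSO library of its genotype, and the log2 change was -2.66 in WT (SE 0.467, adjusted p = 0.000251) and -2.36 in KO (SE 0.464, adjusted p = 0.000606). Ddx58 went from 1.93, 2.26 and 1.82 CPM to 0.788, 1.14 and 1.03 CPM in WT (log2 change -0.99, SE 0.173, adjusted p = 0.000235). In KO, Ddx58 went from 1.56, 1.67 and 1.42 CPM to 1.06, 0.834 and 1.14 CPM (-0.66, SE 0.174, adjusted p = 0.00483). The DMSO and JQ1 libraries did not overlap for Ddx58 in either genotype. Dhx58 had 0.275 to 0.498 CPM in WT in DMSO and 0.280 to 0.584 CPM in WT in JQ1, and 0.371 to 0.516 and 0.265 to 0.792 CPM in KO. These ranges overlapped (log2 change 0.42, adjusted p = 0.359 in WT and 0.11, adjusted p = 0.82 in KO).

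The genes grouped here as antiviral effectors include some whose products hinder viral entry, translation or release. Of the 10 tested, 9 fell in WT and in KO, with Eif2ak2 the exception, and 8 fell by more than 2-fold in each genotype. Among them, Oasl2, Rsad2, Mx2, Ifi35 and Rtp4 entered the tests through DMSO libraries alone, so a fall was built in to some degree. The level summed over the 15 effectors in the table was 19.3 to 22.5 CPM in WT in DMSO and 8.03 to 10.9 CPM in WT in JQ1, and 18 to 19.5 CPM in KO in DMSO and 6.41 to 8.99 CPM in KO in JQ1.

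Ifitm3, a membrane protein that blocks the fusion of viruses with endosomes, had the smallest adjusted p of the group. It stood at 2.40, 2.58 and 2.34 CPM in WT in DMSO and 0.385, 0.315 and 0.327 CPM in WT in JQ1. In KO it stood at 3.07, 4.10 and 3.41 CPM in DMSO and 0.369, 0.662 and 0.389 CPM in JQ1. All JQ1 libraries were far below all DMSO libraries, and the log2 change was -2.85 in WT (SE 0.213, adjusted p = 1.17e-07) and -2.78 in KO (SE 0.19, adjusted p = 4.94e-08). Ifitm2, its close relative, went from 2.20, 2.68 and 2.70 CPM to 1.19, 0.838 and 1.07 CPM in WT (-1.35, SE 0.183, adjusted p = 2.76e-05). In KO, Ifitm2 went from 2.85, 2.72 and 2.84 CPM to 1.35, 1.07 and 0.748 CPM (-1.39, SE 0.175, adjusted p = 1.25e-05). The libraries of the treatments did not overlap for either gene, but these near copies can share reads, so how the reads were divided between them is uncertain.

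Ifit2, which binds viral RNA and hinders translation, stood at 5.77, 6.42 and 6.82 CPM in WT in DMSO and 2.40, 2.60 and 1.87 CPM in WT in JQ1. In KO, Ifit2 went from 5.02, 4.77 and 4.99 CPM to 1.48, 2.42 and 2.24 CPM. No library of JQ1 reached the level of DMSO, and the log2 change was -1.41 in WT (SE 0.146, adjusted p = 2.38e-06) and -1.23 in KO (SE 0.149, adjusted p = 8.53e-06). Oasl2, a member of the oligoadenylate synthetase family, went from 0.410, 0.289 and 0.303 CPM to 0.0385, 0.0154 and 0 CPM in WT (-3.92, SE 0.502, adjusted p = 1.6e-05). In KO, Oasl2 went from 0.4, 0.418 and 0.295 CPM to 0, 0.0132 and 0.0299 CPM (-4.55, SE 0.536, adjusted p = 7e-06). The JQ1 values rest on few counts, so the sums over a group are given as well. Replicate 2 holds 134110850 of the 208991870 gene counts of WT in JQ1, so it weighs most in the sums there. The Oasl2 sums were 4 counts against 36 in WT, 16.9-fold lower (95% counting interval 6.05 to 65.3). In KO they were 2 against 65, 27.4-fold lower (7.29 to 231). Rsad2, whose product viperin makes a chain-terminating nucleotide, went from 0.762, 1.40 and 0.825 CPM to 0.0769, 0.154 and 0.280 CPM in WT (-2.74, SE 0.338, adjusted p = 1.15e-05). In KO, Rsad2 went from 0.763, 0.990 and 0.921 CPM to 0.132, 0.185 and 0.120 CPM (-2.51, SE 0.34, adjusted p = 2.51e-05). Again no JQ1 library reached a DMSO library.

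Bst2, which encodes tetherin and holds budding virions at the cell surface, fell by 1.76 on the log2 scale in WT (adjusted p = 0.000188) and by 1.59 in KO (adjusted p = 0.000294). The log2 changes of Mx2, a dynamin-like GTPase, were -2.34 in WT and -1.89 in KO (adjusted p = 0.000938 and 0.00322). Those of Rtp4 were -2.49 and -2.39 (adjusted p = 0.000241 and 0.00064), and those of Ifi35 -0.86 and -0.78 (adjusted p = 0.0246 and 0.0369). The Ifi35 change was the smallest of the effectors that fell, and its call was lost under DESeq2 in both genotypes (adjusted p = 0.13 and 0.147), without WT in DMSO replicate 2 or 3 or WT in JQ1 replicate 2 (adjusted p from 0.0615 to 0.113), and without KO in DMSO replicate 1 or 2 or KO in JQ1 replicate 1 or 3 (adjusted p from 0.0506 to 0.125). Eif2ak2 encodes PKR, a kinase that stops translation on binding double-stranded RNA. It stood at 5.92, 7.24 and 5.64 CPM in WT in DMSO and 4.38, 6.36 and 4.01 CPM in WT in JQ1, and the libraries overlapped (log2 change -0.29, SE 0.186, adjusted p = 0.206). In KO it stood at 3.63, 4.53 and 4.49 CPM in DMSO and 2.48, 4.01 and 3.98 CPM in JQ1 (-0.26, SE 0.194, adjusted p = 0.271). With the replicate numbers as blocks within genotype, Eif2ak2 was called lower in both, in WT (-0.34, adjusted p = 0.0109) and in KO (-0.28, adjusted p = 0.0366). In WT it was also called without WT in JQ1 replicate 2 (-0.56, adjusted p = 0.0258) and with ERCC scaling (-0.95, adjusted p = 0.0131).

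The interferon-inducible GTPases comprise the guanylate-binding proteins (Gbp2 and Gbp3) and the immunity-related GTPases (Igtp, Irgm1 and Irgm2), which act on the vacuoles of intracellular pathogens. All 4 that were tested fell in both genotypes, and their summed level, with Irgm2, went from 3.87 to 4.13 CPM in WT in DMSO to 0.514 to 0.969 CPM in WT in JQ1. In KO it went from 3.44 to 4.4 CPM to 0.712 to 1.27 CPM. Of the 4, Igtp and Gbp2 entered the tests through DMSO libraries alone, so a fall was built in to some degree. Irgm1 stood at 1.88, 1.90 and 1.98 CPM in WT in DMSO and 0.308, 0.369 and 0.280 CPM in WT in JQ1 (log2 change -2.49, SE 0.231, adjusted p = 8.4e-07). In KO, Irgm1 went from 1.58, 2.03 and 1.93 CPM to 0.237, 0.583 and 0.389 CPM (-2.08, SE 0.22, adjusted p = 2.64e-06). No JQ1 library overlapped a DMSO library. Igtp went from 0.498, 0.395 and 0.523 CPM to 0, 0.0077 and 0 CPM in WT (-6.02, SE 0.667, adjusted p = 4.33e-06). In KO, Igtp went from 0.345, 0.325 and 0.571 CPM to 0, 0.0662 and 0.0598 CPM (-3.05, SE 0.478, adjusted p = 9.16e-05). The group sums for Igtp were 1 count against 51 in WT, 95.7-fold lower with a 95% counting interval of 16.4 to 3850, and 7 against 71 in KO, 8.56-fold lower with an interval of 3.95 to 22.1. Gbp2 changed by -3.84 in WT (adjusted p = 0.000124) and -2.39 in KO (adjusted p = 0.000876) on the log2 scale, and Gbp3 by -1.34 and -1.30 (adjusted p = 0.000413 and 0.000418). Related genes within each family may share some reads, and how far they do was not examined.

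The ubiquitin-like modifier Isg15 and the regulators around it fell as well, all 4 that were tested in both genotypes. Of the 4, Isg15 and Parp14 entered the tests through DMSO libraries alone, so a fall was built in to some degree. Isg15, which is conjugated to other proteins during the response, went from 0.352, 0.369 and 0.385 CPM to 0.154, 0.0846 and 0.187 CPM in WT (-1.64, SE 0.337, adjusted p = 0.000884). In KO, Isg15 went from 0.509, 0.356 and 0.423 CPM to 0.0792, 0.0662 and 0.120 CPM (-2.34, SE 0.347, adjusted p = 5.53e-05). The treatments did not overlap in either genotype. Parp9, an ADP-ribosyltransferase family member, went from 1.32, 1.32 and 1.76 CPM to 0.385, 0.361 and 0.700 CPM in WT (-1.80, SE 0.23, adjusted p = 1.54e-05) and changed by -1.50 in KO (SE 0.228, adjusted p = 7.1e-05). The Parp9 exons overlap Dtx3l on the other strand, so reads of the pair cannot be told apart if counting ignored strand. Parp14, of the same family, went from 0.440, 0.289 and 0.468 CPM to 0.0192, 0.0538 and 0 CPM in WT (-3.28, SE 0.457, adjusted p = 3.43e-05), and changed by -2.64 in KO (adjusted p = 0.000108). The log2 changes of Trim25, the ubiquitin ligase that activates RIG-I, were -0.88 in WT (adjusted p = 0.00324) and -0.98 in KO (adjusted p = 0.00104).

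Class I antigen presentation divided into genes that fell and genes of nearly level expression. The 2 that fell in WT were Nlrc5, the transactivator of class I genes, and Psmb8, a catalytic subunit of the immunoproteasome. Of these, Psmb8 entered the tests through DMSO libraries alone, so a fall was built in to some degree, while Nlrc5 reached the count minimum in both treatments. Nlrc5 went from 1.08, 0.842 and 0.715 CPM to 0.192, 0.284 and 0.280 CPM in WT (-1.76, SE 0.237, adjusted p = 2.5e-05). In KO, Nlrc5 went from 0.927, 1.04 and 0.847 CPM to 0.317, 0.384 and 0.419 CPM (-1.32, SE 0.216, adjusted p = 0.000127). All JQ1 libraries lay below all DMSO libraries, but the Nlrc5 row is annotated as a lincRNA in the deposited table and overlaps 9330175E14Rik, so its assignment is uncertain. Psmb8 went from 0.440, 0.421 and 0.303 CPM to 0.115, 0.108 and 0.140 CPM in WT (-1.75, SE 0.42, adjusted p = 0.00279). In KO, Psmb8 went from 0.582, 0.248 and 0.442 CPM to 0.158, 0.0530 and 0.0598 CPM (-2.31, SE 0.438, adjusted p = 0.000459), again without overlap.

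Among the class I chains, B2m and H2-K1 were not called and H2-D1 rose. B2m, the light chain, stood at 16.8, 18 and 19.5 CPM in WT in DMSO and 17.6, 16.3 and 18.6 CPM in WT in JQ1 (log2 change -0.06, SE 0.0821, adjusted p = 0.566). In KO, B2m stood at 20.3, 19.7 and 19.6 CPM in DMSO and 17.4, 18 and 21.2 CPM in JQ1 (-0.08, SE 0.0797, adjusted p = 0.404). The libraries overlapped in both genotypes, and the change plus or minus 2 standard errors reached from -0.22 to 0.10 in WT. H2-K1, a class I heavy chain, stood at 11.5, 11.6 and 11.9 CPM in WT in DMSO and 11, 10.8 and 13.6 CPM in WT in JQ1 (-0.005, SE 0.101, adjusted p = 0.973), and was not called in KO (-0.07, SE 0.0961, adjusted p = 0.582). H2-D1, the other heavy chain on the list, went from 56.1, 58.6 and 59.7 CPM to 72.9, 62.6 and 77.4 CPM in WT (0.28, SE 0.0664, adjusted p = 0.00251), a direction that turned to -0.36 with ERCC spike-in scaling. In KO, H2-D1 went from 70.4, 66.1 and 64.7 CPM to 76.9, 75.0 and 72.8 CPM (0.16, SE 0.0652, adjusted p = 0.0484), which was lost without KO in DMSO replicate 2 or 3 or any of the KO in JQ1 libraries (adjusted p from 0.07 to 0.169). All JQ1 libraries lay above all DMSO libraries for H2-D1, although H2-K1 and H2-D1 are near copies between which reads can be split. Tap1, a subunit of the peptide transporter, stood at 9, 10.1 and 10.3 CPM in WT in DMSO and 10.2, 9.51 and 10.5 CPM in WT in JQ1 (0.03, SE 0.0829, adjusted p = 0.791). In KO, Tap1 fell from 10.4, 9.14 and 10.4 CPM to 8.68, 8.90 and 8.08 CPM (-0.22, SE 0.0813, adjusted p = 0.0333). That call was lost without KO in DMSO replicate 1 or 3 or KO in JQ1 replicate 1 or 3 (adjusted p from 0.0532 to 0.106). The Tap1 exons overlap Psmb9 on the other strand.

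**Figure D3:**
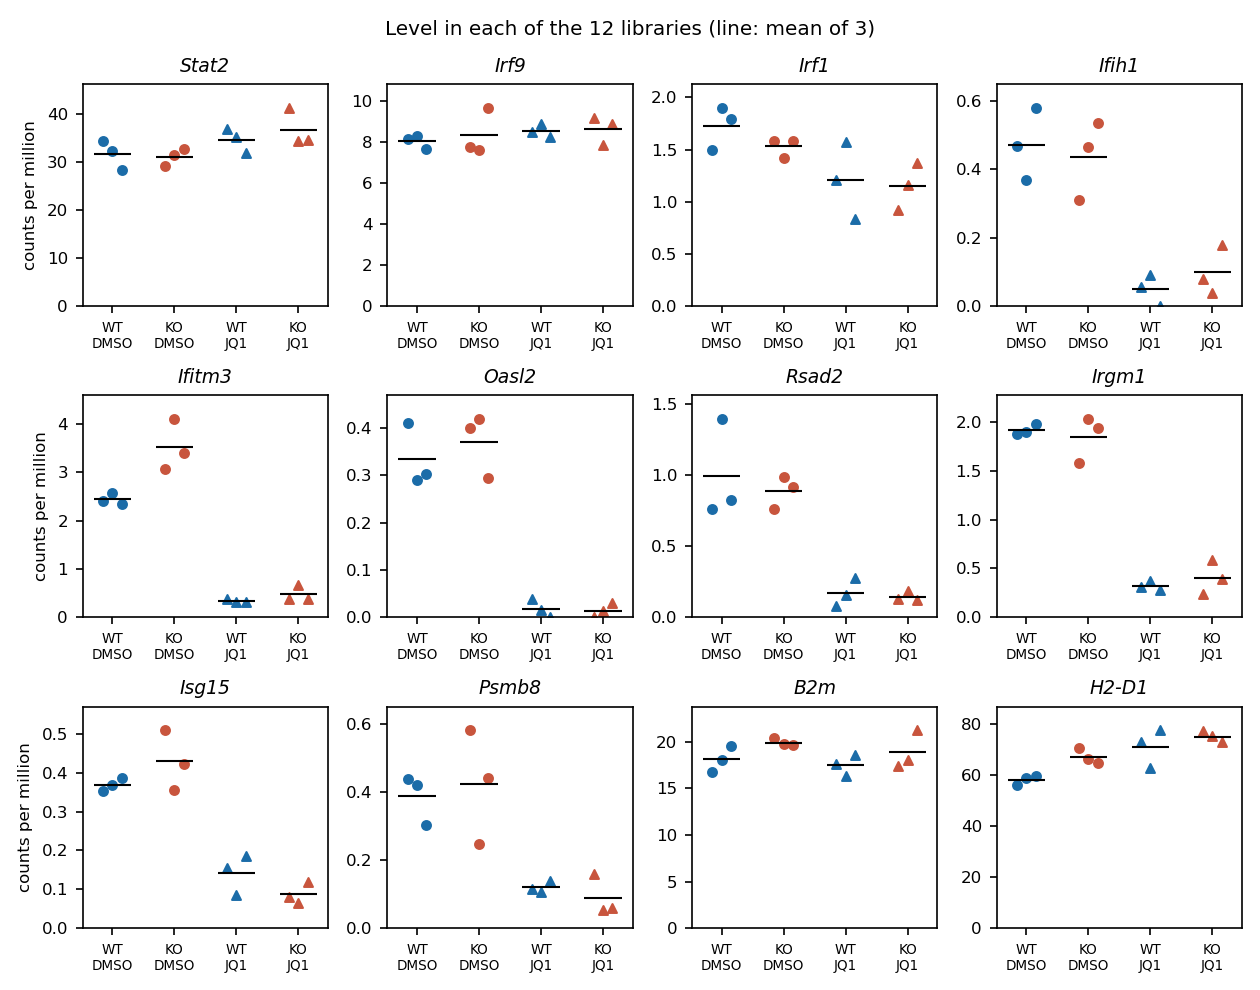
CPM of 12 of the genes in each library, by group on the x axis, with circles for DMSO, triangles for JQ1, blue for WT, red for KO and a line at the mean of the 3 libraries. Ifitm3, Oasl2 and Irgm1 drop in both genotypes, while Stat2 and B2m stay near their vehicle level.

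The 10 genes too low to test were read from sums over each group, which in WT in JQ1 are weighted towards replicate 2, the deepest library. Irgm2 had 2 counts in WT in JQ1 against 18 in DMSO, 16.9-fold lower (95% counting interval 4.04 to 150), and 4 against 29 in KO, 6.12-fold lower (2.15 to 24). Ifit3 was 4.88-fold lower in WT (1.63 to 17.5) and 4.22-fold lower in KO (1.41 to 17). Ifit1 had 1 count against 9 in WT, 16.9-fold lower with an interval of 2.34 to 740, and 4 against 14 in KO, 2.95-fold lower with an interval of 0.928 to 12.3 that includes no change. Ifi44 had 0 counts in both JQ1 groups, which against 4 counts in WT and 9 in KO means at least 2.5-fold lower and at least 2.53-fold lower, taking 3 counts over a group as the limit and the DMSO counts as exact. The 95% counting intervals of the same sums begin at 1.24-fold and 1.67-fold lower. Mx1 had 0 counts in KO in JQ1 against 10 in DMSO, at least 2.81-fold lower by the same limit with an interval that begins at 1.89-fold, and 3 against 5 in WT, where the interval of 0.608 to 20.1 includes no change. Usp18, the protease that removes Isg15, was 2.97-fold lower in WT (1.37 to 6.71) and 2.16-fold lower in KO (1.19 to 4.13). Xaf1 was 5.28-fold lower in KO (1.82 to 20.9) and 3.75-fold in WT (0.801 to 23.2). Sp100 had 1 count against 12 in KO, 10.1-fold lower (1.5 to 433), and 2 against 3 in WT. The chemokine Cxcl10 had 12 counts against 14 in WT, 2.19-fold lower (0.939 to 5.18), and 9 against 18 in KO, 1.69-fold lower (0.72 to 4.27), so no difference was detectable for it. When no filter was applied, 41 genes were tested, 25 of them lower and 1 higher in WT, and 27 lower and 1 higher in KO, against 19.8% and 20.1% of all genes then tested called lower.

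Promoter matches can be set beside these calls. Among the genes with a window, 11 of the 16 that were lower in WT had an ISRE match, as did 3 of the 8 that were not called (Stat2, Eif2ak2 and B2m) and 4 of the 9 that were not tested, while the window of H2-D1 held none. The 16 include genes that entered the tests through DMSO libraries alone, whose fall was built in to some degree. These were Ifih1, Rsad2, Gbp2, Igtp and Isg15 with a match, and Oasl2, Ifi35 and Psmb8 without. A link between matches and calls was not tested. The matches in Ifitm3, whose first bases lie 3 and 20 bases after the start, fall inside the transcribed part. So do those in Ifih1, Ddx58 and Eif2ak2, which begin 33, 3 and 19 bases after the start. GAS letters were found in 6 of the 16, 2 of the 8 and 1 of the 9.

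Other genes of the pathway were counted from lists, to be read against the 29.3% lower and 25.9% higher of all tested genes in WT and the 29.4% and 27.7% in KO. The lists were not split by how their genes passed the filter. Of all genes that passed through DMSO libraries alone, 75.6% were called lower in WT and 75% in KO. Of the 9 interferon receptors, kinases and their STAT proteins tested in WT, 3 fell and 2 rose, shares near those of all tested genes. Among them, the receptor chain Ifnar2 changed by -0.40 (adjusted p = 0.000369), Stat3 by -0.26 (adjusted p = 0.00196) and the kinase Jak2 by 0.28 (adjusted p = 0.000203). In KO, 3 fell and 3 rose. The interferons themselves had almost no counts. Of 17 ligand genes in the table, 14 had 0 counts in all libraries, and Ifnb1 had 1 count, Ifng 2 and Il28a 1 over the 12 libraries. Of 13 other sensors, adaptors and regulatory factors, 8 fell and 1 rose in WT, including the RNA sensor Tlr3 (-2.84, adjusted p = 1.45e-05), Tmem173, which encodes the DNA-sensing adaptor STING (-3.31, adjusted p = 1.51e-05), and Tlr7 (-1.41, adjusted p = 0.000785), whereas Irf8 rose (0.996, adjusted p = 0.00268). In KO, 8 fell and 2 rose.

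A list of other interferon-stimulated genes gave 22 tested, of which 17 fell and 0 rose in WT, and 17 fell and 1 rose in KO. Examples in WT were Parp12 (-1.95, adjusted p = 5.82e-08), Cmpk2 (-1.46, adjusted p = 7.66e-08) and Iigp1 (-1.90, adjusted p = 4.34e-06). Their median log2 change was -1.01 in WT. Of 18 other class I presentation genes, 10 fell and 2 rose in WT, and 10 fell and 1 rose in KO. They included the proteasome activator subunits Psme1 (-1.24, SE 0.0701, adjusted p = 1.03e-08) and Psme2 (-0.70, adjusted p = 4.9e-07), the immunoproteasome subunit Psmb10 (-0.85, adjusted p = 8.77e-07) and the transporter subunit Tap2 (-1.79, adjusted p = 0.000149). Of 6 class II genes, 1 rose and 0 fell in WT, and 2 rose and 1 fell in KO. Among 9 negative regulators of the pathway, 3 fell and 3 rose in WT, and 4 and 4 in KO, with Pias1 higher (0.64, adjusted p = 5.29e-07).

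**Figure D4:**
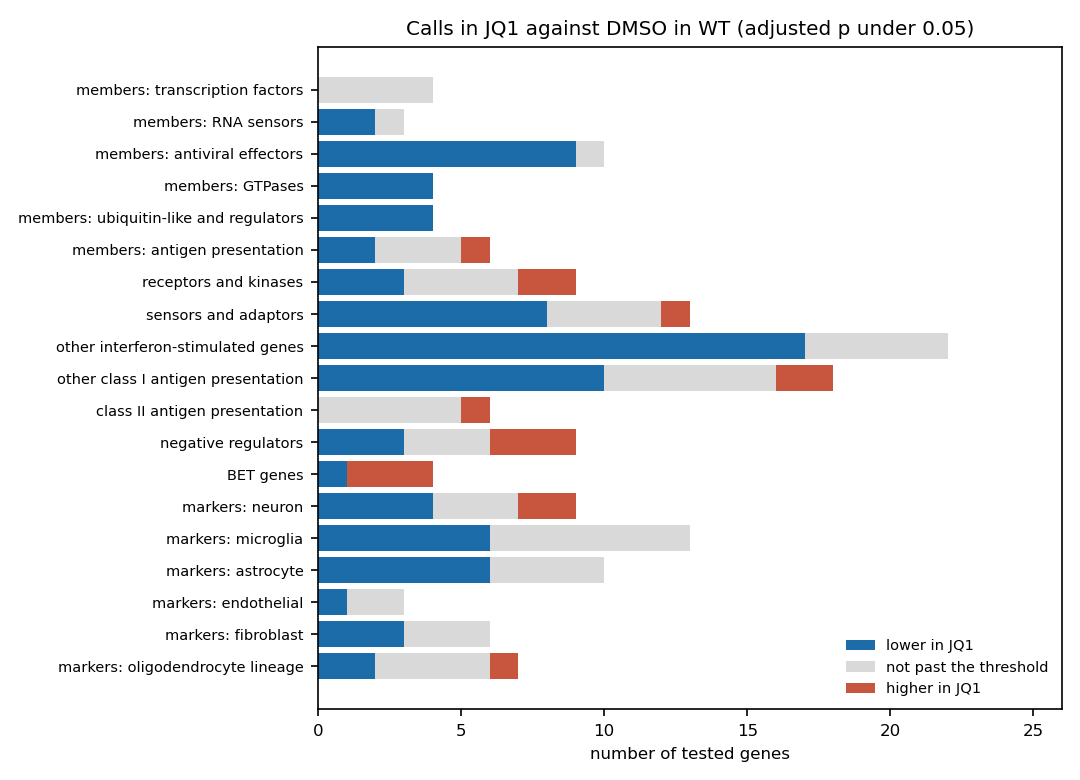
Number of tested genes (x axis) lower, higher or not past the threshold in JQ1 against DMSO in WT, for the roles among the genes described here, the pathway lists and the cell type marker lists. Lower genes make up 9 of 10 effectors and 17 of 22 other interferon-stimulated genes, and 6 of 13 microglial markers. Genes that passed the filter through DMSO libraries alone are included.

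Markers of other cells moved in the same comparison. In bulk samples, fewer cells of a type and less RNA per cell cannot be told apart. Of 13 tested microglial markers, 6 were lower in WT (Cx3cr1, Csf1r, Itgam, Ptprc, Trem2 and Fcer1g) and 9 in KO, 0 were higher, and none of the 15 was at 0 throughout. The median log2 change of the 13 was -0.82 in WT and -1.24 in KO, beside -1.41 and -1.32 for the 31 interferon and antigen presentation genes and -0.004 and 0.001 over all tested genes. Their summed level went from 15.1 to 17.7 CPM to 10.2 to 12.7 CPM in WT, and from 16.7 to 23.1 CPM to 11.2 to 15.4 CPM in KO, while Aif1 was not called in WT (-0.09, adjusted p = 0.445) or KO (0.17, adjusted p = 0.146). Of 10 astrocyte markers, 6 were lower in WT and 5 in KO, with sums of 785 to 941 CPM in WT in DMSO and 554 to 755 CPM in WT in JQ1. In KO the sums were 550 to 744 and 358 to 571 CPM. Of 6 fibroblast markers, 3 were lower in WT and 4 in KO, with sums of 27 to 35.9 CPM in WT in DMSO and 15.3 to 20.6 CPM in WT in JQ1, and 11.7 to 16.4 and 8.1 to 10.9 CPM in KO. Of the 3 endothelial markers tested, 1 was lower in WT and 0 in KO, and of 7 oligodendrocyte lineage markers 2 were lower in each and 1 was higher in WT. The lymphocyte markers were too low to test, with Cd3e and Nkg7 at 0 in all libraries. The 9 neuronal markers analysed, with Map2 not analysed here, gave 4 lower and 2 higher in each genotype, with sums of 5610 to 5830 CPM in WT in JQ1 against 6250 to 6310 in DMSO. The part of these cell types in the changes of the interferon genes was not tested. Nor were the marker lists split by how their genes passed the filter.

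The second question is whether loss of Fmr1 changed these genes. In DMSO, 2 of the 31 tested genes were higher in KO and 0 were lower, against 7.21% and 7.76% of all tested genes, and the median log2 change was 0.003 against -0.015 over all tested genes. The libraries of the genotypes did not overlap for 5 genes that were higher (Ifitm2, Ifitm3, B2m, H2-K1 and H2-D1) and 4 that were lower (Ddx58, Ifit2, Eif2ak2 and Parp9), against 17% and 20.7% of all tested genes. Ifitm3, at 2.34 to 2.58 CPM in WT and 3.07 to 4.10 CPM in KO, rose by 0.53 (SE 0.156, adjusted p = 0.035). H2-D1, at 56.1 to 59.7 CPM in WT and 64.7 to 70.4 CPM in KO, rose by 0.21 (SE 0.066, adjusted p = 0.0492). Leaving out 1 library ended the call of Ifitm3 without WT in DMSO replicate 1, 2 or 3 or KO in DMSO replicate 2 (adjusted p = 0.0941, 0.0762, 0.103 and 0.144), and that of H2-D1 without any WT in DMSO library or KO in DMSO replicate 1 or 2 (adjusted p from 0.0818 to 0.186). Scaling on the ERCC spike-ins turned both directions and called 17 of the 31 genes lower and 0 higher, with a median over all tested genes of -0.82.

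The next genes in order of adjusted p were not called. Eif2ak2 stood at 5.64 to 7.24 CPM in WT and 3.63 to 4.53 CPM in KO in DMSO, with no overlap (log2 difference -0.57, SE 0.188, adjusted p = 0.0547). With the fit restricted to the DMSO libraries it was called (adjusted p = 0.0182), as it was under DESeq2 (adjusted p = 0.0278). Ifit2 stood at 5.77 to 6.82 CPM in WT and 4.77 to 5.02 CPM in KO (-0.37, SE 0.135, adjusted p = 0.0804). H2-K1 stood at 11.5 to 11.9 CPM in WT and 13 to 14.7 CPM in KO (0.23, SE 0.0984, adjusted p = 0.12), and Ddx58 at 1.82 to 2.26 and 1.42 to 1.67 CPM (-0.37, SE 0.163, adjusted p = 0.137). In these 4 genes every KO library lay on one side of every WT library, yet the difference missed the threshold in the fit of all 12 libraries. With only the DMSO libraries, Ifit2 and H2-K1 were called as well (adjusted p = 0.0277 and 0.0367 by edgeR). In the authors' deposited table of KO against WT, 11 of the 41 rows of these genes carry an adjusted p and 5 of the 11 are under 0.05, against 23.8% of the 11880 genes with an adjusted p in the authors' deposited table. The authors' deposited table gives 3 as higher in KO, Ifitm3 (log2 fold change 0.36), H2-K1 (0.22) and H2-D1 (0.21), with adjusted p of 0.0156, 0.0382 and 0.00318. The same authors' deposited table gives Eif2ak2 (-0.41, adjusted p = 0.00215) and Ifit2 (-0.28, adjusted p = 0.0323) as lower in KO. Its log2 fold changes were smaller in size than those here for genes of few counts, such as Rtp4 (-0.056 against -0.351). The sizes of change are therefore not directly comparable.

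Over the 6 lists of other interferon and antigen presentation genes, 9 of 77 tested genes differed between the genotypes in DMSO. The 5 that were higher in KO and the 4 that were lower made up 6.49% and 5.19% of them, no more than the 7.21% and 7.76% of all tested genes. Those higher were Gbp9 (0.89, adjusted p = 0.0458), the class I gene H2-Q4 (0.58, adjusted p = 0.0392), Psmb10 (0.24), Psmb5 (0.23) and Calr (0.24). Those lower were the peptidase Erap1 (-0.53, adjusted p = 0.0389), Rfx5 (-0.40, adjusted p = 0.0395), Jak2 (-0.25, adjusted p = 0.00514) and Trim24 (-0.17). Microglial marker sums were 15.1 to 17.7 CPM in WT and 16.7 to 23.1 CPM in KO in DMSO, with 0 of 13 called. Fibroblast sums were 27 to 35.9 CPM in WT and 11.7 to 16.4 CPM in KO, and astrocyte sums 785 to 941 and 550 to 744 CPM. The fibroblast markers did not move together. Of 6 tested, 2 were called lower in KO, 1 higher and 3 not, with a median log2 change of 0.177. Of 10 astrocyte markers, 2 were lower, 0 higher and 8 not called. The part of these cell types in the differences between genotypes was not tested.

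In JQ1, 0 of the 31 genes were called between KO and WT by edgeR and 0 by DESeq2, against 8.97% of all tested genes by edgeR, and 4 had an unadjusted p under 0.05. Eif2ak2, at 4.01 to 6.36 CPM in WT and 2.48 to 4.01 CPM in KO, had the smallest adjusted p (log2 difference -0.54, SE 0.192, adjusted p = 0.0917). Tap1 stood at 9.51 to 10.5 CPM in WT and 8.08 to 8.90 CPM in KO (-0.22, SE 0.0824, adjusted p = 0.102), with no overlap. Igtp stood at 0 to 0.0077 CPM in WT and 0 to 0.0662 CPM in KO (2.78, SE 1.07, adjusted p = 0.116), and Ifitm3 at 0.315 to 0.385 and 0.369 to 0.662 CPM (0.60, SE 0.261, adjusted p = 0.161). Nlrc5 stood at 0.192 to 0.284 CPM in WT and 0.317 to 0.419 CPM in KO (0.54, SE 0.263, adjusted p = 0.21), and Gbp2 at 0 to 0.0467 and 0.0397 to 0.0897 CPM (1.54, SE 0.842, adjusted p = 0.26).

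**Figure D5:**
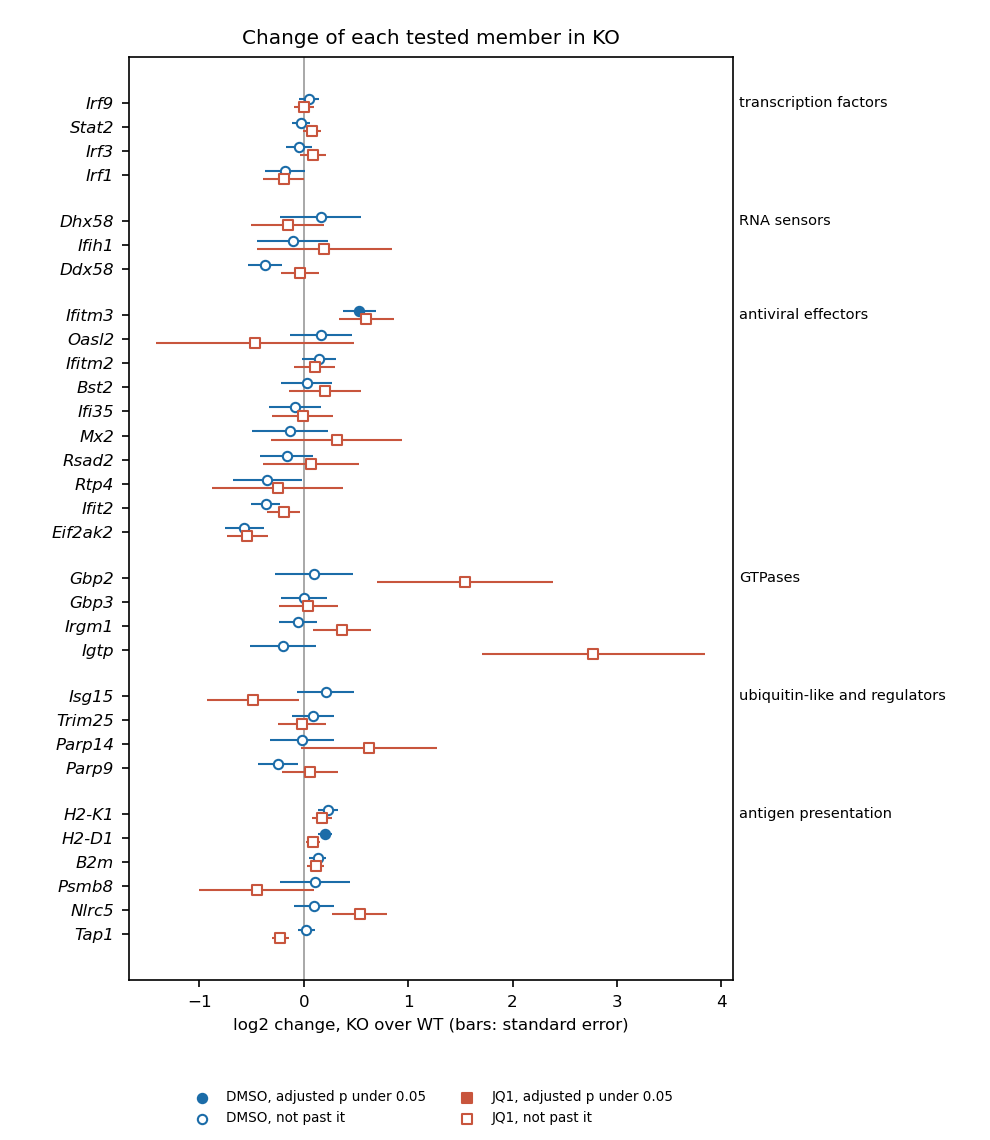
Log2 change in KO over WT for each of the 31 tested genes, in DMSO as circles and in JQ1 as squares, with bars of 1 standard error and filled symbols for an adjusted p under 0.05. Most genes lie near 0, Ifitm3 and H2-D1 in DMSO are the 2 filled symbols, and the wide bars of Igtp and Gbp2 in JQ1 belong to genes with few counts.

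The third question is whether the response to JQ1 differed between the genotypes. The interaction test called 0 of the 31 genes by edgeR and 0 by DESeq2, and edgeR called 0 of all 15433 tested genes, with 1 of the 31 at an unadjusted p under 0.05. That gene was Igtp, with a difference of responses of 2.97 (SE 1.11, adjusted p = 1 in edgeR), which rests on 1 count in WT in JQ1 and 7 in KO in JQ1. Gbp2 had a difference of 1.45 (SE 0.913), Isg15 of -0.70 (SE 0.516) and Tap1 of -0.25 (SE 0.116). The difference was 0.07 for Ifitm3 (SE 0.292), 0.17 for Ifit2 (SE 0.209), -0.02 for B2m (SE 0.114) and -0.12 for H2-D1 (SE 0.093). A test that misses the threshold does not show that the genotypes respond alike.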

How the data were processed

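Per the labels' protocols, neurons were grown in Neurobasal with B27, RNA came from RNeasy columns, and TruSeq RNA libraries were sequenced with 75 bp single reads (NextSeq500). The submitters' processing notes name TopHat2 2.1.0, the mm9 build, SAMtools 0.1.19, HTSeq 0.6.1, DESeq2 and DESeq. Strandedness, annotation release and counting mode were not given in the sources used here.

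Deposited with the series, 1 table holds raw read counts per gene for 12 libraries. The other 6 samples in the labels were not analysed here. The authors' deposited DESeq2 table gives for KO over WT a mean signal (normalised count), a log2 fold change with its error, a Wald score and p-values, and entered no test.

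In R 4.3.3 with edgeR 4.0.16, filterByExpr (minimum count 10, by group) kept 15433 of 37310 genes. The 92 ERCC rows were left out of library sizes, libraries were scaled with TMM, and the 12 libraries were fitted with 1 mean for each group (8 residual degrees of freedom). Quasi-likelihood F tests were adjusted with Benjamini-Hochberg over all tested genes. Standard errors come from the F statistic, and CPM uses TMM-scaled totals. Group sums were compared with exact 95% binomial intervals. Alternatives were DESeq2 1.42.0, its size factors, ERCC scaling, no filter, only the compared libraries, replicate blocks and left-out libraries. Same-numbered libraries of DMSO and JQ1 deviated together in KO (r = 0.23, 0.29 and 0.21) and less so in WT (0.094, 0.16 and 0.15). Libraries of different numbers reached at most -0.064 in KO and 0.017 in WT. Between genotypes, same-numbered libraries ran from -0.18 to 0.12. The fit with 1 mean for each group held no block. Blocks by replicate number were used only in alternative fits, which covered WT as well as KO. The fit was tested on simulated data.

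The genes, the lists and the tests were chosen with earlier results of these data known. Each of the 43 genes is accounted for. Library values and full statistics go to the factors, the sensors, the class I genes and those of smallest adjusted p (up to 10 in JQ1 against DMSO, up to 6 in the other comparisons), and up to 4 called genes are named per list, with a few others chosen after their values were seen. Some listed genes are not reported here.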

Additional observations from a re-analysis of the deposited data

How the results depend on the processing

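With JQ1 against DMSO, 22 of the tested genes were called in WT and 24 in KO. Under every alternative, 20 of the 22 and 18 of the 24 were called in the same direction. The counts ran from 21 to 23 in WT and from 20 to 23 in KO when 1 library was left out, and were 21 in KO without both KO replicate 3 libraries. The calls of Ifi35, H2-D1, Tap1 and Stat2 were the ones most often lost in KO, as was that of Ifi35 in WT. For KO against WT in DMSO, the 2 calls became 0 to 2 when 1 library was left out, 5 (3 higher, 2 lower) with only the DMSO libraries in the fit and 17, all lower, with ERCC scaling. For KO against WT in JQ1 the count was 0, and 1 (Eif2ak2, lower) with no filter and 1 (Eif2ak2) with the replicate block. With the replicate block the counts were 3 for KO against WT in DMSO, 22 for JQ1 in WT and 24 for JQ1 in KO, and with blocks within genotype 24 in WT, where Irf1 and Eif2ak2 were added, and 25 in KO. The difference of responses had 0 calls under each alternative.

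ERCC scaling moved the median log2 change of all tested genes to -0.82 for KO against WT in DMSO, -0.12 in JQ1, -0.63 for JQ1 in WT, 0.07 in KO and 0.70 for the difference of responses. It put all 31 differences of KO against WT in DMSO below 0, of which 16 were above 0 before. Of these 16, the ones called under either scaling went to these values: Trim25 -0.75, Irf9 -0.77, Ifitm3 -0.24, Gbp3 -0.82, Tap1 -0.80, Bst2 -0.85, B2m -0.67 and H2-D1 -0.61. For JQ1 in WT it put all 31 below 0, 5 of them above 0 before, turned H2-D1 to -0.36, with adjusted p = 0.298 by edgeR, and gave 23 lower and 0 higher. In KO it left 18 calls, all lower, without those of Ddx58, Trim25, Ifi35, Tap1, Stat2 and H2-D1. How much spike-in each sample received was not given in the sources used here, and the cause of the shift was not tested. Depth limits the 11 genes that passed the filter through DMSO alone and the 10 that were not tested.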
